A study of Mus musculus with 3 samples.

Results

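Mature neutrophils of the mouse vomeronasal organ (VNO), the pheromone-sensing organ at the base of the nasal cavity, were examined in 3 single-cell RNA libraries. Their barcodes were picked on measured values. A barcode counted as a member when S100a8 and S100a9 together made at least 2% of its transcript molecules (unique molecular identifiers, UMIs), when Csf3r, Il1b, G0s2 and Cxcl2 together had at least 2 UMIs, and when the primary granule genes Mpo, Elane, Prtn3 and Ctsg together made no more than 0.1%. Before that, barcodes with 200 to 9000 detected genes and no more than 10% mitochondrial UMIs were kept. In all, 910 of 15711 kept barcodes were members. The levels of those rule genes in the members are therefore a description of the choice and not a result.

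The 3 libraries came from male mice on a mixed C57 BL/6J 129P2/OlaHsd background. The P10 control library was OMPCre Heterozygous. OMPCre places Cre recombinase under the olfactory marker protein gene of mature chemosensory neurons. The P10 mutant and 3-month mutant libraries were OMPCreR26AP2e Double Heterozygous, and the 3-month library bears P90 in its title. All groups thus shared OMPCre, and the sources used here give no activity of that promoter in neutrophils. Cells had been dissociated with papain and collagenase, and a 10x Genomics 3′ kit was used. Each group was 1 library, and the number of animals behind each is not given in the sources used here, so no test between groups was possible. At P10 genotype and library cannot be told apart, and between the mutant libraries age, library and the version of the counting software cannot be told apart. Intervals in brackets are 95% intervals for counting error only.

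Neutrophils are short-lived phagocytes that are made in the bone marrow, leave it for the blood and enter tissues within hours of an alarm signal. Their granule proteins are transcribed in a fixed order during maturation, with primary granule enzymes first, specific granule proteins such as lactoferrin next and gelatinase granule proteins later, and this transcription is low by the time the cells reach a tissue. In tissues they switch on cytokines, chemokine receptors and, where interferon is present, antiviral genes.

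Members made 5.32% of kept barcodes in the P10 control library (255 of 4795, exact binomial interval 4.70 to 5.99), 8.62% in the P10 mutant library (341 of 3956, 7.76 to 9.54) and 4.51% in the 3-month mutant library (314 of 6960, 4.04 to 5.03). The share was thus highest in the P10 mutant library, and the intervals of the P10 control and 3-month mutant libraries overlapped. With a mitochondrial limit of 5% the shares were 12.5%, 19.3% and 6.58%, in the same order of libraries, since that limit removed more of the other cells at P10. Shares of barcodes depend on how many cells of every other type survived dissociation, and that dependence was not tested. The study reports that dissociated cells were frozen and thawed before loading, and that its P10 control data were made the same way. The effect of that step on the shares was not tested.

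**Figure D1:**
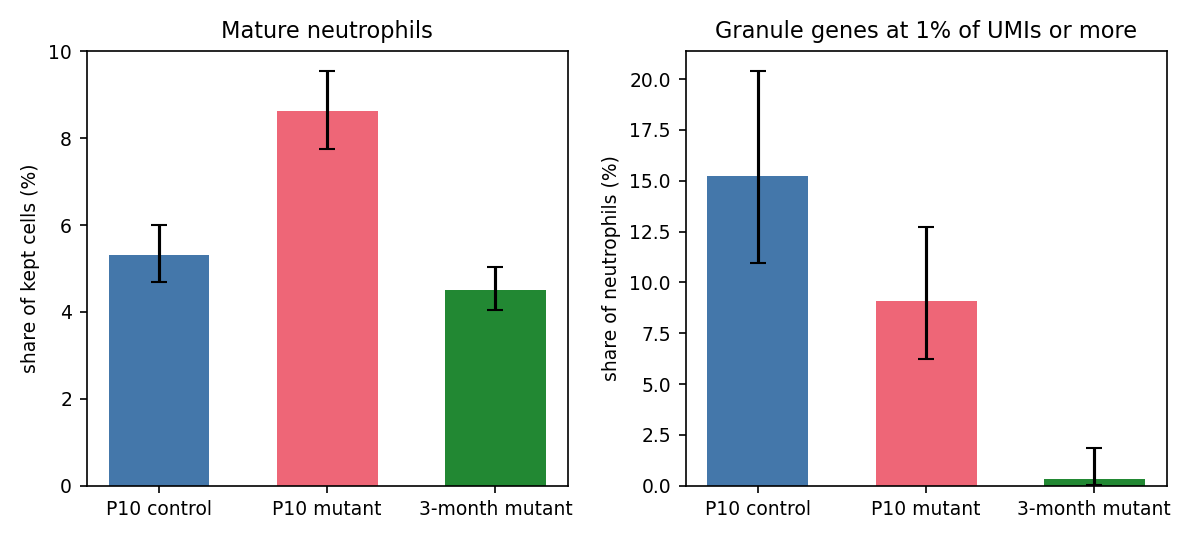
Bars give the share of kept cells that were mature neutrophils (left, percent) and the share of neutrophils with granule genes at 1% of UMIs or more after thinning to 1000 UMIs (right, percent), 1 bar per library, with exact binomial 95% intervals for counting error only. The P10 mutant library has the highest neutrophil share (8.62%), and the granule-rich share is 15.2% and 9.09% at P10 against 0.331% at 3 months.

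The members were small cells by UMI count. Their median UMI counts were 2844, 2826 and 2505.5 (P10 control, P10 mutant and 3-month mutant), against 10915.5, 11606 and 5589 in the other kept barcodes. They held 1.67%, 2.33% and 1.51% of all kept UMIs. The libraries themselves held 83870584, 80760046 and 70074800 UMIs in 8202, 8864 and 10293 barcodes. Of all pairs of libraries, 21 to 30 barcode sequences were shared, and no member barcode was shared between any pair. The members' median mitochondrial share was 3.00%, 3.56% and 1.24%, lower than the 6.12%, 6.46% and 4.10% of the other kept barcodes.

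The identity of the members was checked on genes that the rule did not use. Retnlg, a resistin-like gene typical of neutrophils, had 6356, 4631 and 1991 UMIs per 1000000 (CPM) in members. Here and below, values in a row of 3 belong to the P10 control, P10 mutant and 3-month mutant libraries, in that order. In the other kept barcodes it had 1.96, 1.23 and 2.78 CPM, so that Retnlg led all genes by its lowest members-to-others ratio over the libraries (715). After thinning each cell to 1000 UMIs, Retnlg was found in 27.6%, 33.0% and 38.7% of members and in 0.172%, 0.147% and 0.340% of other kept barcodes. Its level was thus lowest at 3 months, while the share of members with a UMI of it was not.

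Other leading genes by the same ratio, listed here without a test because the members were cut from these cells, included the stefin genes Cstdc4 and Stfa2l1, the granule genes Ngp, Camp and Wfdc21, the chemokine receptor gene Cxcr2, the activating receptor gene Trem1, Slfn4, the itaconate enzyme gene Acod1, and the C-type lectin gene Clec4d. Cxcr2, which reads the CXCL chemokines that draw neutrophils out of the marrow, had 319, 385 and 951 CPM. Trem1 had 989.7, 998 and 905 CPM and was found in 61.3%, 62.7% and 56.6% of thinned members. Primary granule genes were at or near 0, which the rule demanded, and Ms4a3, a progenitor gene that the rule left alone, had 8.63 and 7.96 CPM at P10 and 0 UMIs at 3 months. Siglecf, a gene of eosinophils that some tissue neutrophils also express, had 67.1, 72.4 and 61.2 CPM, with the eosinophil peroxidase gene Epx at 0.

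Among the rule genes, S100a8 and S100a9 encode the calprotectin subunits. S100a8 had 77399.6, 66975 and 35168 CPM, and S100a9 had 78427, 69887 and 50308 CPM. Csf3r, the receptor for the growth factor G-CSF, had 709, 699.8 and 1403 CPM. Il1b, the inflammatory cytokine interleukin 1 beta, had 8054, 8805 and 15599 CPM. Over all members the S100 genes were thus lowest, and Csf3r and Il1b highest, in the 3-month mutant library. At P10, members poor in granule transcripts, described below, had 42740 and 41807 CPM of S100a8 and 39890 and 40604 CPM of S100a9. Their S100a9 levels were thus under the 3-month level of all members. Over the 10 rule genes such members summed to 107442, 108058 and 98326 CPM, against 175420, 155934 and 114000 CPM in all members. Per cell, the 2 S100 genes had a median share of 8.89%, 8.89% and 6.72% of UMIs, against a median of 0 in the other kept barcodes. Close to the limit, 23, 40 and 52 members had an S100 share between 2% and 3%, and 21, 67 and 74 kept barcodes lay between 1% and 2%. The lowest members stood at 2.03%, 2.04% and 2.00%, and the highest barcodes under the limit at 1.997%, 1.996% and 1.990%.

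Traces of transcripts from other cells were present and differed between the libraries. The immunoglobulin gene Igkc had 0, 7.96 and 1068 CPM in members, and 23452 CPM in the other kept barcodes of the 3-month mutant library. The gland gene list, made of odorant-binding and lipocalin genes, summed to 717, 149 and 6208 CPM in members against 5762, 2306 and 15093 in the others, with Obp2a alone at 657, 135 and 5665 CPM. Macrophage markers summed to 233, 127 and 615 CPM in members, and C1qa, a defining macrophage gene, had 43.2, 3.98 and 185 CPM against 5178, 5001 and 6731 in the 233, 239 and 889 macrophage-rich barcodes, those with complement C1q genes at 0.5% of UMIs or more. Dendritic cell markers summed to 151, 229 and 1623 CPM and B cell markers to 64.3, 91.6 and 1084 CPM. Gland, immunoglobulin, macrophage and dendritic transcripts were therefore highest in the 3-month mutant members, and their part in the results was not tested beyond leaving out the members that held most of them.

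Members of the P10 libraries varied widely in granule transcripts. Ltf (lactoferrin), Camp (cathelicidin), Ngp and Lcn2 (lipocalin 2) together made at least 1% of UMIs in 39 members of the P10 control library, 33 of the P10 mutant library and 1 of the 3-month mutant library, and under 0.1% in 170, 252 and 234 members. The remaining 46, 56 and 79 members lay between these limits, and 15, 10 and 1 of all members stood near the upper limit, at 0.5% to 2%. Members rich in granule transcripts were larger, with medians of 7844 and 8685 UMIs at P10 against 2629.5 and 2678.5 in granule-poor members. Each member was thinned to 1000 UMIs to remove that difference, which left out 12, 11 and 12 shallower members. The granule-rich share was then 15.2% in the P10 control library (37 of 243, exact interval 10.95 to 20.4), 9.09% in the P10 mutant library (30 of 330, 6.22 to 12.7) and 0.331% in the 3-month mutant library (1 of 302, 0.00838 to 1.83). The P10 intervals overlapped, and both lay above that of the 3-month mutant library.

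Granule-rich members had higher levels of genes known from maturation in the marrow, and granule-poor members of response genes. In the P10 control library, Chil3, a chitinase-like secreted protein, had 1452 CPM in granule-rich and 13.2 CPM in granule-poor members, and in the P10 mutant library 1780.4 CPM and 0. Ly6g, the surface marker used to sort neutrophils, had 478 against 24.5 CPM and 369.8 against 8.34 CPM. Cd177, Itgb2l, Orm1 and Serpinb1a were among the other genes highest by this contrast in both P10 libraries. Retnlg had 13340.2 against 1615 CPM in the control and 10794 against 1026 CPM in the mutant library. Cebpe, the transcription factor of the specific granule programme, had 217 against 16.96 CPM and 321 against 23.6 CPM, and Cybb, the oxidase subunit gp91phox, 837 against 104 CPM and 851 against 23.6 CPM. These genes share their direction with the granule genes that defined the contrast. The early granulocyte list stood at 19.8 and 23.1 times its granule-poor level, and the cell cycle list at 1.33 and 2.56 times. Within the cell cycle list Tubb5 and Stmn1 ran the other way in the control library, at 0.502 and 0.414 times. The name mature neutrophils thus follows the rule, and granule-rich members also held transcripts of earlier stages.

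The opposite pole held chemokine, adhesion and interferon-response genes. Ccrl2, a chemerin-binding receptor, had 87.8 CPM in granule-rich and 2703 CPM in granule-poor members of the P10 control library, and 17.2 and 3066 CPM in the mutant library. Icam1, an adhesion molecule, had 10.98 against 339 CPM and 8.60 against 371 CPM. Csf1, the macrophage growth factor, had 16.5 against 586 CPM and 20.1 against 1084 CPM. Isg15, a ubiquitin-like interferon-induced protein, had 49.4 against 1459 CPM and 11.5 against 1083 CPM. The summed interferon-response list stood at 0.21 and 0.19 times its granule-poor level, and the NF-kB feedback list at 0.20 and 0.14 times. The protease inhibitor list, mostly stefins, stood on the granule-rich side, at 2.18 and 1.93 times. Within it Cstb ran the other way, at 0.176 and 0.0729 times. Transcripts of handling and of macrophages and dendritic cells were also higher in granule-poor members. Granule-rich members had 0.256 and 0.25 times the granule-poor level for immediate early, 0.247 and 0.287 times for heat shock, 0.0318 and 0.0516 times for macrophage and 0.316 and 0.123 times for dendritic markers, and their part in the contrast was not tested. Because granule-rich members held 34.9% of member UMIs in the P10 control library, 27.8% in the P10 mutant library and 1.18% in the 3-month mutant library, the main differences between libraries are given below for all members and again for granule-poor members alone.

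The first comparison set the P10 mutant library against the P10 control library, which share age and differ in the R26AP2e allele. Few genes differed. Of 3816 genes with at least 50 UMIs over both libraries, 42 were at least 2-fold higher (1.1%) and 41 at least 2-fold lower (1.07%) in pooled CPM, and the median log2 ratio over all of them was 0.04. Among the 17 gene lists, none of the 8 specific granule, 6 gelatinase granule, 2 early granulocyte, 7 cell cycle, 8 protease inhibitor, 11 NF-kB feedback, 13 interferon-response, 6 oxidase, 6 adhesion, 7 survival, 14 hypoxia and glycolysis, 9 immediate early, 5 heat shock, 7 transcription factor or 5 MHC class I genes passed 2-fold in either direction. In the cytokine list 1 of 12 genes was higher and 1 lower, and in the surface receptor list 1 of 19 was higher. That receptor gene, Tlr4, had under 50 UMIs in the control library. None of the 18 receptor genes with at least 50 UMIs there passed 2-fold. The list medians ran from -0.35 for specific granule genes to 0.45 for NF-kB feedback genes.

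Csf1 had 352 CPM in control and 752 CPM in mutant members, a ratio of 2.14 (1.89 to 2.42), and 1.85 in granule-poor members. Its 3-month level was 602 CPM. Clec4n, which encodes the fungal receptor dectin-2, had 200.4 and 494 CPM, a ratio of 2.47 (2.11 to 2.90), and 2.13 in granule-poor members. Both genes lie on the granule-poor side of the range described above. Ccl4, a chemokine that draws monocytes and T cells, had 601 and 1022 CPM, a ratio of 1.70 (1.54 to 1.87), with 1.76 in macrophage-rich barcodes and 2.00 in the other kept barcodes of the same libraries. The Ccl4 difference was thus as large outside the neutrophils. Nfkbie, an inhibitor of NF-kB, had 82.5 and 162 CPM, a ratio of 1.96. Tlr4, the receptor for bacterial lipopolysaccharide, had 14.4 and 34.2 CPM, with under 50 UMIs in the control library. Genes of low level in the same direction were N4bp2, Dot1l, Zfp281, Rhoh, Sbno2, Odc1, Fgl2 and Ptgs2os2, with ratios from 1.85 to 4.0.

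Of the 12 genes named in the lower direction 2 passed 2-fold, Wfdc17 and Pwp1. Wfdc17, a small secreted inhibitor of inflammation, had 434 CPM in control and 194 CPM in mutant members, a ratio of 0.447 (0.381 to 0.524), and 1241 CPM at 3 months. Lyz2, lysozyme, had 5477 and 3674 CPM, a ratio of 0.67, with 0.67 also in granule-poor members. Lcn2 had 6151 and 4335 CPM, a ratio of 0.70, and 0.80 in granule-poor members. Ly6c2 had 234 and 123 CPM, a ratio of 0.524, and 0.0867 in granule-poor members. Ly6c2 also marks monocytes, and the monocyte list that holds it summed to 285, 124 and 128 CPM in members, a P10 ratio of 0.436 (0.357 to 0.531), and to 196, 11.1 and 113 CPM in granule-poor members. Of its other genes Ccr2, F13a1 and Ms4a6c had 12, 11 and 30 UMIs in control and 1, 0 and 1 in mutant members, and the macrophage list had a P10 ratio of 0.543. Whether monocyte transcripts account for the Ly6c2 difference was not tested. Cxcl3, a CXCR2 ligand, had 471 and 166 CPM, a ratio of 0.35 (0.30 to 0.41), but 1 cell held 24.4% of its control UMIs, and it was picked here after its values were seen. Plaur, Wfdc21, Ctss, Ifi27l2a, Sh3bp5 and Pwp1 had ratios between 0.457 and 0.702, and Retnlg had 0.729. AA467197 had a ratio of 0.57 in members while its level in the other kept barcodes went from 1.63 to 37.5 CPM.

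A further set of genes had higher levels outside the members than in them, among them gland transcripts. Obp2a, an odorant-binding protein, had 657 and 135 CPM in members and 4540.4 and 2035 CPM in the other kept barcodes. Lcn3 and Obp2b were lower with it, at ratios of 0.25 and 0.337, and Bpifa1 had 51 UMIs in control and 0 UMIs in mutant members. Anxa5 had a ratio of 0.429. In the higher direction Rbbp8, Oard1, Eif1a, Ccnd2 and Eln had ratios from 2.08 to 2.60.

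The second comparison set the 3-month mutant library against the P10 mutant library, which share the genotype. Of 3688 genes with at least 50 UMIs over both libraries, 329 were at least 2-fold higher (8.92%) and 299 at least 2-fold lower (8.11%), with a median log2 ratio of 0.06. When CPM was computed without mitochondrial, ribosomal protein and Gm42418 UMIs the same rule gave 456 higher and 223 lower genes, with a median log2 ratio of 0.20, so the split between directions depends on the scaling. Gm42418, a transcript that overlaps a ribosomal RNA gene, had 2274, 2244 and 97315 CPM in members and 1478, 1767 and 40238 CPM in the other kept barcodes. AY036118, on the opposite strand of the same locus, and Lars2, a mitochondrial tRNA synthetase gene, moved with it, with ratios of 30.8 and 35.6 in members and 17.9 and 18.2 in the others. In the reverse direction the ferritin gene copy Ftl1-ps1 had 2566, 2009 and 60.1 CPM in members, a ratio of 0.0299, against 0.0394 in the others. These differences were thus present in the other cells of the libraries too, with the first 3 larger in the neutrophils.

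**Figure D2:**
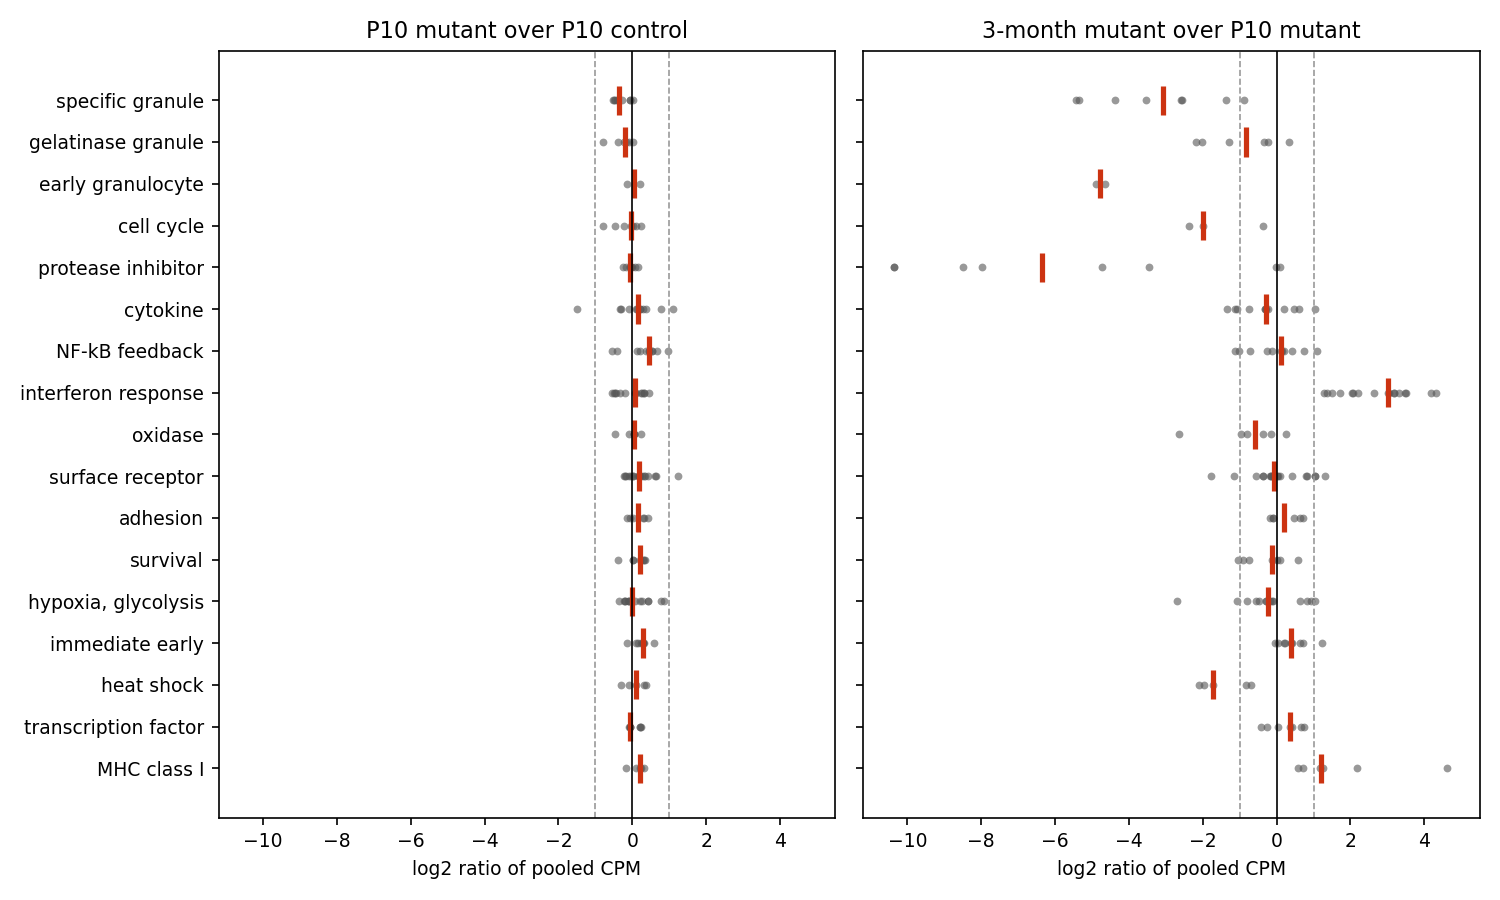
Each point is the log2 ratio of pooled CPM in mature neutrophils for 1 gene of the list named at the left, red bars are list medians, and dashed lines mark 2-fold. A gene at 0 UMIs is drawn at the ratio that a count of 3 gives. The lists sit near 0 for the P10 mutant over the P10 control library, whereas for the 3-month over the P10 mutant library all 17 interferon-response genes lie right of the 2-fold line and 6 of 8 protease inhibitor genes far to the left.

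In the interferon-response list every gene differed, against 8.92% of all genes at least 2-fold higher. All 17 genes tested were at least 2-fold higher in the 3-month mutant members, with log2 ratios from 1.28 to 4.31 and a median of 3.01, and of 2.59 in granule-poor members. All 17 listed genes were tested, but 7 of them had under 50 UMIs in the P10 mutant library and entered through the 3-month library. The other 10, with at least 50 UMIs at P10, were all at least 2-fold higher too. Isg15 had 875, 758 and 3131 CPM, a ratio of 4.13 (3.84 to 4.45) between the mutant libraries. Rsad2, the antiviral enzyme viperin, had 144, 198 and 1782 CPM, a ratio of 8.99 (7.86 to 10.3). Ifit1, which binds viral RNA, had 104, 73.2 and 809 CPM, a ratio of 11.04 (8.87 to 13.9). In each of these genes the P10 libraries stood much closer to each other than to the 3-month mutant library.

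Ifit3 had 40.3, 29.5 and 531 CPM, a ratio of 18.0 (12.9 to 25.95), and its near copy Ifit3b a ratio of 19.8. The 3′ reads of this pair can be assigned to either gene, so their values are uncertain individually. Oasl1 had 72.9, 50.2 and 571 CPM, Slfn5 had 83.4, 99.5 and 893 CPM and Slfn4 had 613, 640.1 and 1815 CPM. Irf7, the transcription factor that amplifies interferon production, had 258, 186 and 609 CPM, and Ifitm3, which blocks virus entry, had 1653, 1313 and 3177 CPM. Herc6 and Zbp1, interferon-induced genes outside the list, had ratios of 12.9 and 12.5. No single cell carried the list, since the highest 3-month member held between 1.66% and 5.70% of the UMIs of each listed gene.

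The summed list stood at 4182, 3737 and 15253 CPM in all members and at 6181, 5024 and 15621 CPM in granule-poor members. Between the mutant libraries the ratio of the sums was 4.08 (3.95 to 4.22) in all members and 3.11 (2.99 to 3.23) in granule-poor members. In macrophage-rich barcodes of the same libraries the sums were 4214, 4323 and 3579.5 CPM, a ratio of 0.828 (0.807 to 0.849), and in the other kept barcodes 1902, 2504 and 3140.2 CPM, a ratio of 1.25. The intervals for the members and for both other sets of barcodes did not overlap. Macrophages of the 3-month mutant library thus did not have the higher level that its neutrophils had.

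**Figure D3:**
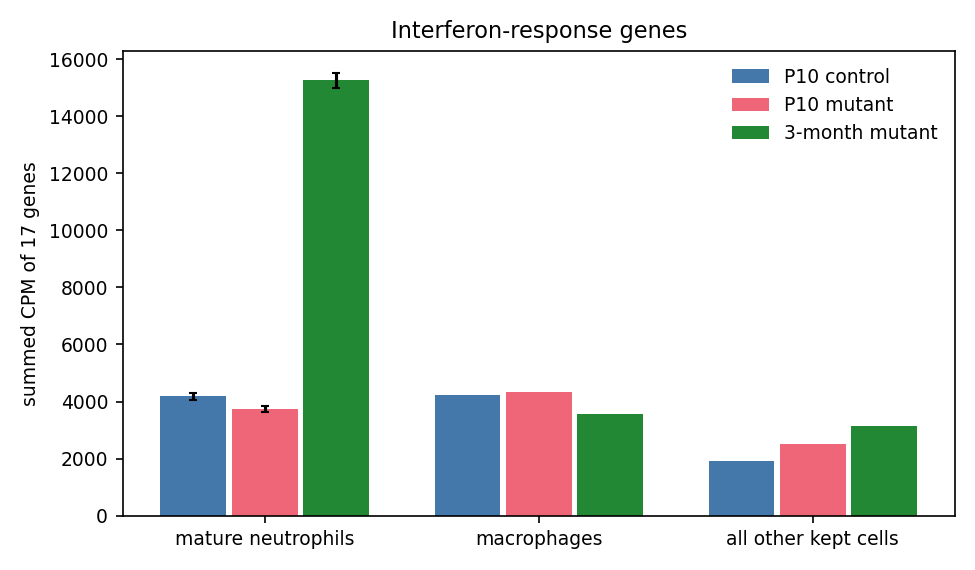
Bars give the summed CPM of the 17 interferon-response genes in mature neutrophils, in macrophage-rich barcodes (macrophages) and in all other kept cells, 1 colour per library, with exact Poisson 95% intervals drawn for the neutrophils only. The 3-month mutant neutrophils stand at 15253 CPM, and every other bar is at 4323 CPM or below.

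Cell by cell, the median member held 3, 2 and 14 interferon-response UMIs per 1000. At least 10 of 1000 UMIs came from the list in 20.2% of members of the P10 control library (15.3 to 25.8), 12.4% of the P10 mutant library (9.07 to 16.5) and 65.9% of the 3-month mutant library (60.2 to 71.2). In macrophage-rich barcodes this share was 9.27%, 10.1% and 5.39%, and in the other kept barcodes 1.87%, 3.37% and 5.25%. Isg15 was found in 36.2%, 32.4% and 77.5% of thinned members and Ifit3 in 4.12%, 3.03% and 30.5%. Some P10 members thus had the programme too, and most 3-month members had it.

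The promoter windows of these genes, from 250 bases before to 50 bases after the annotated start (RefSeq, GRCm38.p6), are shown because interferon acts through a known element, the ISRE, bound by the ISGF3 complex. The core letters GAAANNGAAA, searched on both strands, were found in 8 of the 15 list genes that had a window (53.3%), against 1079 of 27025 genes with a window (3.99%). The 8 genes were Isg15, Ifit1, Ifit3, Ifit3b, Rsad2, Slfn5, Ifitm3 and Gbp2. Ifit3 and Ifit3b hold the same letters in a near-identical stretch, so they do not count as 2 separate cases. The list was made of known interferon-response genes, so a high share may follow from that choice. In the windows below, written 5′ to 3′ on the strand of the gene, capitals mark these letters.
Isg15, chr4:156200769-156201068 (minus strand): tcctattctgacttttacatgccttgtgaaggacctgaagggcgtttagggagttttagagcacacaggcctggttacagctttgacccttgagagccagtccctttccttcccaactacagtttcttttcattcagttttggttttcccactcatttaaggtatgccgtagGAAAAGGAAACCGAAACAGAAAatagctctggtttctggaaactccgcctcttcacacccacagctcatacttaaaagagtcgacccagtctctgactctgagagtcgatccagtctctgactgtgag
Ifit1, chr19:34640639-34640938 (plus strand): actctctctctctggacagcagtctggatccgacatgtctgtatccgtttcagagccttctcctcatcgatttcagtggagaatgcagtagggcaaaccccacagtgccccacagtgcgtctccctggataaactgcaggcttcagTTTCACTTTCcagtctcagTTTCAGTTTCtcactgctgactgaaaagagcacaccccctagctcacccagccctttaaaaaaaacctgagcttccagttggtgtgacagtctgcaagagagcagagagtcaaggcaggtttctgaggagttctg
Ifit3, chr19:34583279-34583578 (plus strand): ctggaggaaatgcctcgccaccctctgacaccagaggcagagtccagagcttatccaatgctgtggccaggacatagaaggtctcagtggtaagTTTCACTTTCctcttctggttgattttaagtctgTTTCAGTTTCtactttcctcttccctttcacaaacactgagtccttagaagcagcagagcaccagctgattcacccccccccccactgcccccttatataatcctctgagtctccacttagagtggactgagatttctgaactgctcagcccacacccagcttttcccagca
Rsad2, chr12:26456403-26456702 (minus strand): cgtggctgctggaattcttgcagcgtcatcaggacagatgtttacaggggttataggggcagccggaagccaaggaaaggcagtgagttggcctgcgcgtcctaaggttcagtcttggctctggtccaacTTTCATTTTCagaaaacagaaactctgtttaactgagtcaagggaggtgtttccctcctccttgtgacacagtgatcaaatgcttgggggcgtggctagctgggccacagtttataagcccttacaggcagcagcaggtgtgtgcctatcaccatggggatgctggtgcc
Isg15 held 3 overlapping matches, Ifit1 and Ifit3 held 2 and Rsad2 held 1. The match is a description of the letters and not of a bound site, and a window without it says nothing about the factor.

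MHC class I genes were higher at 3 months inside and outside the neutrophils. Among members 4 of 6 tested genes were at least 2-fold higher and none lower, against 8.92% and 8.11% of all genes. The median log2 ratio was 1.21. Of the 4, however, 2 genes, H2-Q7 and Tap1, had under 50 UMIs in the P10 mutant library and entered through the 3-month library. The list summed to 2569, 2859.7 and 5422 CPM in members and to 1267, 1639 and 4772 CPM in the other kept barcodes. The ratio of the sums between the mutant libraries was 1.90 in members, 2.91 in the other kept barcodes and 1.37 in macrophage-rich barcodes. B2m, the light chain of MHC class I, had 753, 807 and 1808 CPM, and Tap1, the peptide transporter, had 30.7, 38.2 and 172 CPM. H2-K1 had 335, 396 and 944 CPM, and H2-Q7 was at 0, 2.39 and 58.9 CPM. B cell and dendritic transcripts, whose values in members are given above, also carry MHC class I genes, and their part was not tested.

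Stefin genes differed in the opposite direction. Stefins are small cytosolic inhibitors of cysteine cathepsins, and the mouse has a cluster of them on chromosome 16 that is expressed in neutrophils. Of the 8 genes tested in the protease inhibitor list, 6 were at least 2-fold lower in the 3-month mutant members, against 8.11% of all genes. The list median log2 ratio was -6.35. The other two were Slpi, an inhibitor of neutrophil elastase with 1523, 1485 and 1481 CPM, and Cstb, the stefin B gene outside the cluster, with 387, 372 and 396 CPM. They stood at 1.00 and 1.07 times their P10 mutant level.

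The cluster spans positions 36156811 to 36455392 of chromosome 16 (GRCm38, GENCODE M21). Within it, Stfa1 had 20504, 22749.6 and 90.1 CPM, and Cstdc5 had 22565, 21424 and 38.1 CPM. Cstdc4 had 12071, 11468 and 434 CPM, and Stfa2 had 5663, 5029.99 and 13.9 CPM. Each of these was far below both P10 levels at 3 months. Stfa2l1 had 4692, 4915 and 451 CPM, which made it the least reduced, at 0.0917 times its P10 mutant level. The 3 remaining large members, Stfa3, Csta2 and Csta3, had 3578, 3024 and 2.31 CPM, 3078, 3061 and 2.31 CPM, and 1072, 1539 and 5.78 CPM, and the small Cstdc6 had 113, 161 and 1.16 CPM. No gene of the cluster stood near its P10 level at 3 months, while the P10 libraries differed by 1.44-fold or less in all 9.

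**Figure D4:**
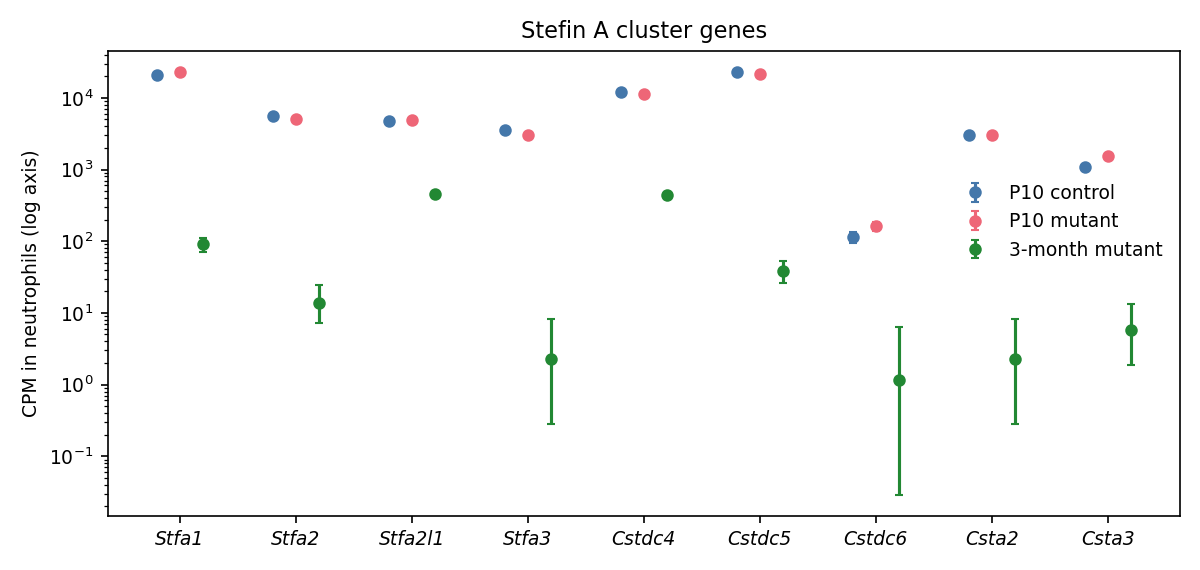
Points give the pooled CPM (log axis) of the 9 stefin genes in mature neutrophils, 1 colour per library, with exact Poisson 95% intervals for counting error. For each gene the P10 libraries lie together, and the 3-month mutant library lies below both.

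The 9 genes summed to 73337, 73370.3 and 1039 CPM. The ratio of the sums was 1.00 (0.991 to 1.01) at P10 and 0.0142 (0.0132 to 0.0151) between the mutant libraries. Granule-poor members gave 43213, 49672 and 820.4 CPM and a ratio of 0.0165. In the other kept barcodes the sums were 147, 278 and 2.5 CPM. After thinning, a stefin UMI was found in 95.9% of P10 control members (233 of 243, 92.6 to 98.0), in 98.5% of P10 mutant members (325 of 330, 96.5 to 99.5) and in 26.5% of 3-month mutant members (80 of 302, 21.6 to 31.8). The median member held 43, 53 and 0 stefin UMIs per 1000. Granule-poor members thus showed the lower level as well. Of the other kept barcodes at P10, 94.1% and 92.1% held no stefin UMI after thinning, and the highest held 92 and 102. The sums there thus rest on few barcodes, and whether these were cells other than neutrophils was not tested.

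**Figure D5:**
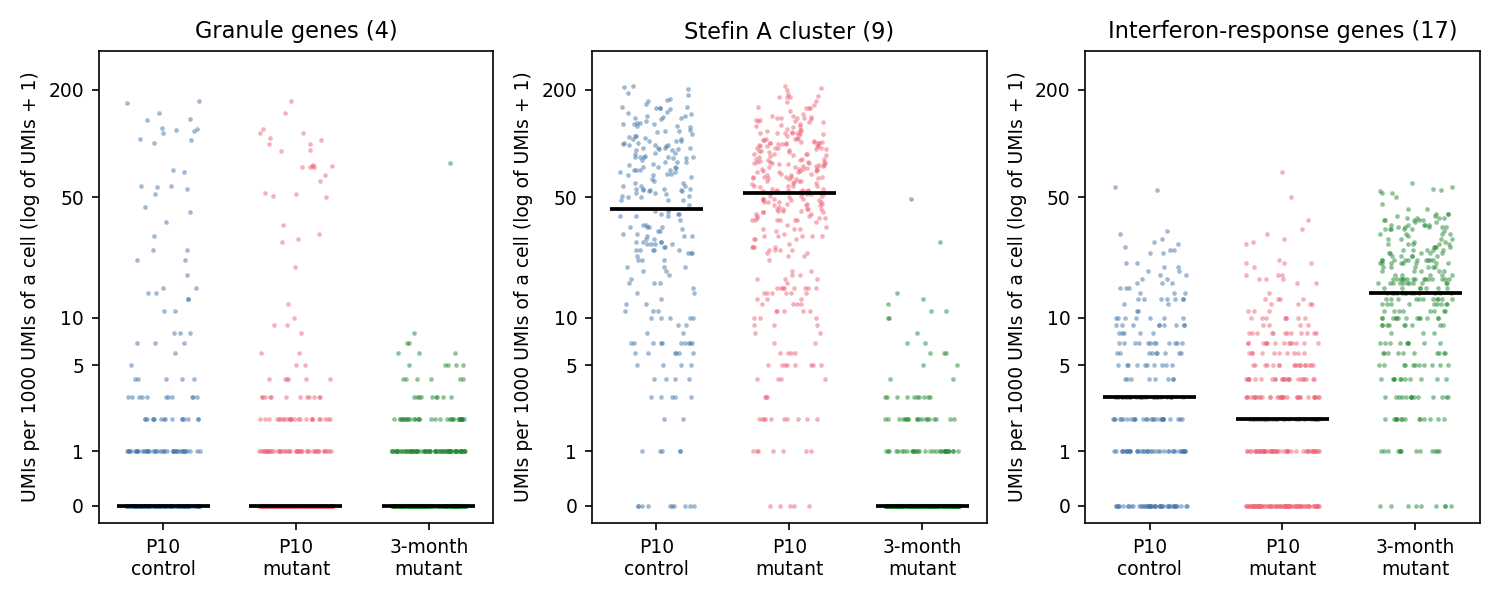
Each point is 1 mature neutrophil thinned to 1000 UMIs, black lines are medians, and the vertical axes give its UMIs from the 4 granule genes, the 9 stefin genes and the 17 interferon-response genes on a log axis of UMIs + 1. The median is 0 in each library for granule genes, 43, 53 and 0 for stefins, and 3, 2 and 14 for interferon-response genes.

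The stefin transcripts are alike, and 3′ reads can be split or dropped between them. In the last 300 bases of their transcripts (GENCODE M21), Stfa1 and Cstdc5 shared 98.7% of positions and Cstdc4 and Csta2 shared 92.7%, whereas Csta3 was at most 65.8% identical to any other of the 9. Csta3, the most distinct, stood at 0.00375 times its P10 mutant level, on only 5 UMIs at 3 months, and Stfa1 at 0.00396 times, on 78 UMIs. The 3-month library was counted with Cell Ranger 6.0.1 and both P10 libraries with 4.0.0, per the file headers, and whether the assignment of reads to near-identical genes differs between these versions was not tested. Of the 33 Cstdc5 UMIs at 3 months, 66.7% came from 1 cell.

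The start regions of both most abundant stefins are shown with the letters TTGCNNAA, part of the sequence read by C/EBP factors, in capitals on either strand. These letters were found in 3 of 8 stefin genes with a window (37.5%) and in 3 of 6 specific granule genes (50%), against 3298 of 27025 genes (12.2%) and 0 of 15 interferon-response genes. The stefin matches, in Stfa1, Cstdc5 and Csta3, are the same letters in near-identical stretches of the cluster, so they do not count as 3 separate cases.
Stfa1, chr16:36276898-36277197 (plus strand): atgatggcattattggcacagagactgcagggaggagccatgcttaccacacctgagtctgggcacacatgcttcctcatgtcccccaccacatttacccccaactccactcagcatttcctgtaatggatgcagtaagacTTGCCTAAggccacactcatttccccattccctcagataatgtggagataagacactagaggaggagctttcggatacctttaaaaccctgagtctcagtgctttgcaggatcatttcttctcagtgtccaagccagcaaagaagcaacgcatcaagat
Cstdc5, chr16:36367521-36367820 (minus strand): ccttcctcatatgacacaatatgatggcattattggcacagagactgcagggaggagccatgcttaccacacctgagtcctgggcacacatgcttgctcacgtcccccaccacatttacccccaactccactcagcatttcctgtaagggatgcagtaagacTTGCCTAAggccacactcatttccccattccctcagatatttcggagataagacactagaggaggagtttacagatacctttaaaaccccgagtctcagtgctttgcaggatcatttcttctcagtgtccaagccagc
GAAANNGAAA was found in none of the 8 stefin windows.

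Granule genes were lower at 3 months. In the specific granule list 7 of 8 genes were at least 2-fold lower, against 8.11% of all genes. The list median log2 ratio was -3.06, and it was -0.57 in granule-poor members. Camp had 9372, 8943 and 219.5 CPM, and 99.5% of the 3-month UMIs came from the 1 granule-rich cell. Ngp had 11212, 9273 and 444 CPM with 99.2% from 1 cell, and Ltf had 2799, 2015 and 333 CPM with 21.2% from 1 cell. Hp, haptoglobin, was the exception with 1485, 1496 and 805 CPM. Olfm4, a specific granule gene held by a subset of neutrophils, had 352, 256 and 1.16 CPM. Since 4 of the 8 genes define the granule-poor members, their median of -0.57 is set by that split. Over the other 4 genes the median was -2.45 in all members.

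Earlier stages were close to absent at 3 months. Cebpe had 89.2, 104 and 3.47 CPM, and Fcnb, ficolin B of immature granulocytes, had 96.9 and 87.6 CPM at P10 and 0 UMIs at 3 months, so that both tested early granulocyte genes were at least 2-fold lower. Of 3 tested cell cycle genes 2 were lower, Tubb5 with 161, 174 and 43.9 CPM and Stmn1 with 110.3, 107 and 20.8 CPM, the latter with 72.2% of its 3-month UMIs in 1 cell. Hmgb2, a chromatin gene that cells outside the cycle also express, had 1517, 1535 and 1181 CPM and stayed within 2-fold. The cell cycle list summed to 0.645 times its P10 mutant level in members, 0.962 times in granule-poor members, 0.40 times in the other kept barcodes and 0.376 times in macrophage-rich barcodes. Hmgb2 made 1096 of the 1308 CPM of that list in granule-poor P10 mutant members. Over the 3 tested genes the median log2 ratio in granule-poor members was -1.28. In the gelatinase granule list 3 of 6 genes were lower, among them Mmp8, neutrophil collagenase, with 496, 378 and 83.2 CPM, while Mmp9, gelatinase B, had 788, 738 and 632 CPM. In the oxidase list 1 of 6 was lower, against 8.11% of all genes. It was Cybb with 349, 253 and 40.4 CPM, whereas its partner subunit Ncf1 had 584, 688 and 615 CPM.

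Receptor genes went both ways. In the surface receptor list 3 of 19 genes were at least 2-fold higher at 3 months and 2 lower, against 8.92% and 8.11% of all genes, and the median log2 ratio was -0.07. In granule-poor members the median was -0.46. The ratio of the list sums was 0.977 in all members and 0.752 (0.729 to 0.776) in granule-poor members. Cxcr2 had a ratio of 2.47 (2.20 to 2.77) between the mutant libraries and was found in 34.2%, 35.8% and 59.3% of thinned members. Cxcr4, the receptor that returns ageing neutrophils to the marrow, had 579, 584 and 1209.6 CPM. In granule-poor members of the P10 mutant library Cxcr2 had 486 CPM and Cxcr4 828 CPM, above their levels in all members of that library. Fcgr4, an activating antibody receptor, had 76.7, 85.2 and 174 CPM. Those that were lower were Cd14, the lipopolysaccharide co-receptor, with 2235, 2856 and 1294 CPM, and Ltb4r1, the leukotriene B4 receptor, with 202, 181 and 53.1 CPM. In the adhesion list 0 of 6 genes passed 2-fold, and Cd44, a hyaluronan receptor, had 854, 1142 and 1069 CPM.

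Cytokine genes went both ways. Of 12 tested, 1 was at least 2-fold higher and 3 lower at 3 months, against 8.92% and 8.11% of all genes, with a median log2 ratio of -0.30. Tnf had 121, 131 and 267 CPM. Il1rn, the natural antagonist of interleukin 1, had 646, 796 and 377 CPM, Ccl3 had 2113, 1719 and 671 CPM and Cxcl3 had 471, 166 and 76.3 CPM. Over all members the antagonist and both chemokine genes were thus lower while Tnf was higher. In granule-poor members of the P10 mutant library Tnf had 186 CPM. The cytokine median in granule-poor members was -0.77, and the ratio of the list sums was 0.593, against 0.785 in all members. Ptgs2, cyclooxygenase 2, had 719, 927 and 1281 CPM, and Csf1, which was higher in the P10 mutant than in the P10 control members, had 0.80 times its P10 mutant level at 3 months. Against the same shares of all genes, 1 of 11 genes in the NF-kB feedback list was higher and 2 were lower. Higher was Zfp36 with 969.6, 1325 and 2828 CPM, and with 1705 CPM in granule-poor members of the P10 mutant library. Lower were Nfkbie with 82.5, 162 and 73.9 CPM and Nfkb1 with 131, 192 and 94.7 CPM. Nfkbia, the main inhibitor of NF-kB, had 2045, 2255 and 3774 CPM. The NF-kB feedback median was 0.12 in all members and -0.49 in granule-poor members. The ratio of the list sums was 1.49 and 1.12 in the same order.

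Of the genes that respond to handling and to oxygen, heat shock genes were lower, and the immediate early and hypoxia counts lay near the share over all genes. In the immediate early list 1 of 9 genes was at least 2-fold higher at 3 months, Egr1 with 239.8, 281 and 659.7 CPM, with a list median of 0.40. In the heat shock list 3 of 5 genes were lower, against 8.11% of all genes. They were Hspa8 with 844, 1051 and 317 CPM, Hspa1a with 151, 163 and 41.6 CPM and Hspa1b with 121, 158 and 37.0 CPM. The heat shock list summed to 1729, 1927 and 735 CPM in members, to 3894, 4832 and 2709 in the other kept barcodes and to 5932, 6896 and 3241 in macrophage-rich barcodes, so that the lower 3-month level was shared by all 3 sets. In the hypoxia and glycolysis list 1 of 14 was higher, Hif1a with 145, 152 and 315 CPM, and 2 were lower, Hilpda, a lipid droplet protein, with 471, 563 and 86.7 CPM and Ldha, lactate dehydrogenase, with 819.96, 714 and 339.7 CPM.

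In the survival list 1 of 7 genes was at least 2-fold lower at 3 months, against 8.11% of all genes. It was Bcl2a1a with 192, 194 and 94.7 CPM, a gene whose copies Bcl2a1b and Bcl2a1d share its reads. Mcl1, the survival factor on which neutrophils depend, had 2535, 3118 and 2864 CPM. None of the 7 tested transcription factor genes passed 2-fold, and Cebpb, the factor of emergency granulopoiesis, had 4860.3, 5666 and 4695 CPM.

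Among the remaining genes chosen by the naming rule, Rgs1, a brake on chemokine receptor signalling, had a ratio of 17.5, with 51.4% of its P10 control UMIs in 1 cell. The antisense transcript BC018473 had 160.2, 223 and 3.47 CPM. Genes with higher levels outside the members were Igha, with 0 UMIs in both P10 libraries and 228 CPM at 3 months, Igkc, Jchain, Lcn4 and Obp2a in the higher direction and Eln, Spp1, Col1a1, Hspa8 and Lbp in the lower. Their ratios in members ran from 0.0259 for Eln to 0.301 for Hspa8.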

How the data were processed

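Single-cell RNA counts were taken from 3 VNO libraries of 1 sample each, a P10 control, a P10 mutant and a 3-month mutant. The deposited matrices hold raw counts of UMIs for 32285 features per barcode, made by the authors with Cell Ranger against mm10, version 4.0.0 for the P10 libraries and 6.0.1 for the 3-month library per the file headers. The submitters' processing notes also list Seurat 3.2.3, which leaves no trace in the raw counts. Of these libraries the study describes the P10 control library. No normalization was applied by the authors, and no column of another sample was present.

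Barcodes with 200 to 9000 genes and at most 10% mitochondrial UMIs were kept, and members were taken by the rule given at the start. The members and gene lists were chosen with earlier results of these data known. Doublets were not removed, and an alternative left out members with markers of other cell types. UMIs were summed over members and divided by their total to give CPM. Macrophage-rich barcodes had C1qa, C1qb and C1qc at 0.5% of UMIs or more and the S100 genes under 2%. Poisson intervals were used for levels, conditional binomial intervals for ratios and Clopper-Pearson intervals for shares, all exact, at 95%, and for counting error only. Genes with at least 50 UMIs over both libraries entered a comparison, and a list gene had to pass this too. Per-cell shares were taken after thinning to 1000 UMIs with a fixed seed. With 1 library per group no p-value was computed, and P10 control and 3-month mutant levels were only set side by side.

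Named genes were the 12 per comparison and direction whose interval lay farthest from a ratio of 1, among genes outside the rule, not mitochondrial, with no cell holding over 20% of the UMIs in the higher library and with at least the level of the other kept barcodes. A further 5 that failed only the last condition were named as such. In each P10 library 10 genes per direction were named for granule-rich against granule-poor members, and 15 by the ratio of members to other kept barcodes. Listed genes were matched by symbol or RefSeq synonym, and 2 stefin symbols had no feature. Promoter windows came from RefSeq (GRCm38.p6), for 15 of 17 interferon-response, 6 of 8 specific granule and 8 of 9 stefin genes. Tfap2e, which encodes the AP-2 epsilon factor that R26AP2e is named for, had 819, 11833 and 3708 UMIs in the whole P10 control, P10 mutant and 3-month mutant libraries and 2, 19 and 22 UMIs in members. Analyses used Python 3.11.15, NumPy 2.4.6, SciPy 1.17.1 and pandas 2.3.3, and were tested on simulated counts. Alternatives changed the mitochondrial limit, the S100, Csf3r group and granule thresholds, the UMI minimum, the scaling, the averaging of cells and the members left out.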

Additional observations from a re-analysis of the deposited data

How the results depend on the processing

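No named gene changed direction under any alternative, and the remaining genes past 2-fold were not followed individually. List medians stayed within their interval in 382 values and left it in 20. In the shorter lists that interval was the full range of the genes. For the 8 protease inhibitor genes between the mutant libraries it was -10.37 to 0.09. Staying within it was thus nearly fixed in advance and is no measure of stability. Of 34 medians 13, all between -0.30 and 0.36 as reported, changed sign under at least 1 alternative and give no direction. At P10 their values ran from -0.33 to 0.16 for gelatinase granule, -0.16 to 0.15 for early granulocyte, -0.82 to 0.05 for cell cycle, -0.09 to 0.21 for protease inhibitor, -0.42 to 0.12 for interferon-response, -0.09 to 0.19 for hypoxia and glycolysis, -0.22 to 0.56 for heat shock and -0.10 to 0.08 for transcription factor genes. Between the mutant libraries they ran from -0.77 to 0.17 for cytokine, -0.49 to 0.33 for NF-kB feedback, -0.46 to 0.13 for surface receptor, -0.61 to 0.01 for survival and -0.13 to 0.49 for transcription factor genes. No paired analysis was possible because each group is 1 library, and for the same reason no replicate could be left out. The interferon-response median between the mutant libraries ranged from 2.54 to 3.14 and the protease inhibitor median from -6.53 to -5.80. With a mitochondrial limit of 5% the neutrophil share was 12.5%, 19.3% and 6.58% in the P10 control, P10 mutant and 3-month mutant libraries, and with S100 genes at 5% or more it was 3.92%, 6.40% and 2.76%. Leaving out members with markers of other cell types over 0.5% gave 4.38% in the P10 control and 1.19% in the 3-month mutant library, where gland transcripts removed most members. The granule-rich share was 9.88% in the P10 control library at a threshold of 3%, and 5.43% in the P10 mutant library without the top 5% of members by UMIs.

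Counts of genes past 2-fold depended on the UMI minimum. With 10 UMIs they were 507 higher and 535 lower at P10 and 966 and 1084 between the mutant libraries, and with 200 UMIs 4 and 8 and 118 and 108. Thinning gave 9 and 17 at P10 and 146 and 135 between the mutant libraries. At P10, S100 genes at 5% or more gave 67 higher and 12 lower, the mean of per-cell CPM gave 75 lower, granule-poor members alone gave 77 lower and leaving out members with other markers, gland genes aside, gave 26 lower. Between the mutant libraries granule-poor members gave 210 higher. Of 52 named results past 2-fold, 26 of 624 values fell under 2-fold, all at P10.

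Between the mutant libraries the early granulocyte median was -4.62 with S100 genes at 5% or more, -2.84 by the mean of per-cell CPM, -3.52 without members with other markers, -4.99 at 5% mitochondrial UMIs and -4.64 without mitochondrial, ribosomal protein and Gm42418 UMIs. The cell cycle median was -3.77 with S100 genes at 5% or more, -2.93 without members with other markers, -2.49 with gland genes aside and -2.76 at 10 UMIs. The heat shock median was -2.09 without the top 5% of members. In granule-poor members the specific granule, surface receptor and immediate early medians were -0.57, -0.46 and 0.030. At P10, S100 genes at 5% or more gave 0.35 for immediate early and 0.56 for heat shock genes, the mean of per-cell CPM gave -0.16 for early granulocyte genes, and leaving out the top 5% gave -0.79 for specific granule genes. In granule-poor P10 members the cell cycle, gelatinase granule and protease inhibitor medians were -0.82, 0.16 and 0.21. Granule-poor members as a set, and the alternative with gland genes aside, were chosen after seeing the data. The causes were not tested. Depth limits genes under 50 UMIs, which were not compared.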
